A study of Mus musculus with 12 samples.

Results

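Open chromatin was compared between ER-Hoxa9 Lys-GFP cells kept in estradiol (E2) and the same cells after 24 h without E2 followed by 96 h with it. Each group had 1 deposited list of ATAC-seq peaks for its 2 libraries. The continuous E2 list held 13165 peaks and the 24 h list 11465, which together formed 14367 regions. A region was called shared where peaks of both lists overlapped by at least 1 base, E2-only where a continuous E2 peak had no such partner, and 24 h-only where a 24 h peak had none. There were 10248 shared regions, 2917 E2-only regions (20.3% of the regions) and 1202 24 h-only regions (8.37%). Most regions were thus called in both lists. E2-only regions outnumbered 24 h-only ones, and this excess moves with the length of the lists. With both lists at 11465 peaks, 18.2% of continuous E2 and 18.03% of 24 h peaks were unshared. Equal lengths make these shares about equal by construction. The E2-only regions lay mostly away from gene starts and ends. Meis1, a cofactor of Hoxa9, had 3 E2-only and 3 shared regions, and 38 genes had at least 3 E2-only ones. Over the listed genes that Hoxa9 is known to act with or on, 22.2% of regions were E2-only (12.5 to 36.3). Of all regions assigned to a gene, 19.5% were. Start sites of progenitor receptor genes fell in each class: those of Cd34 and Tgfbr2 in E2-only, those of Kit and Flt3 in shared, and those of Cd44 and Il6ra in 24 h-only regions.

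The cells are C57BL/6 mouse cells grown in medium with stem cell factor, carrying Hoxa9 fused to the estrogen receptor and a GFP reporter for lysozyme, in every group. E2 was removed by washing. Of the other 4 groups, 3 spent 40, 56 or 72 h without E2 before 80, 64 or 48 h with it again, and the last spent 120 h without it. Their lists were used here only as a readout that did not form the classes. Per the labels, nuclei were divided into 2 transposition reactions, so the libraries of a group may be technical repeats. The lists give positions only, so depth is unknown, no replicate values could be had and no p-value was computed. The 95% intervals cover counting error over regions only. Whether the lists differ in depth or in cell quality was not tested. Time in culture and the effect of the wash cannot be told apart from withdrawal. The groups are separate arms and not a time course. Longer withdrawal also meant less time with E2 again, and these cannot be told apart.

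Hoxa9 is a homeodomain factor that binds DNA with Meis and PBX partners and holds myeloid progenitors in an immature, dividing state. Fused to the hormone-binding domain of the estrogen receptor it works only with ligand, and without E2 such cells mature toward neutrophils and monocytes. ATAC-seq marks DNA that the Tn5 transposase can reach, mainly promoters, which are open in many cell types, and distal elements such as enhancers, which vary more between cell states.

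Promoter sequences are shown first, for a selection of listed genes with the widest regions over a promoter in the reference. Of promoters that held a region, 9.18% held an E2-only one and 7.63% a 24 h-only one, beside 20.3% and 8.37% of all regions. Among the listed genes, 12 promoters held an E2-only region, 10 a 24 h-only one and 86 a shared one. Each line gives the 200 bases upstream of a start site in GRCm38.p6, from RefSeq, 5′ to 3′ on the gene's strand. Capitals mark matches, on either strand, to GGGCGG (the GC box), CCAAT (read by NF-Y), CCGGAAG (an ETS site), CACGTG (an E-box), TGANTCA (an AP-1 site) and TGTGGT (a RUNX site). The first set holds promoters under E2-only regions. They belong to Socs1, which blocks JAK kinases, Spry2, which limits growth factor signalling, B2m, the light chain of MHC class I, and Tgfbr2. They lie at chr16:10785537-10785736 (minus strand), chr14:105896820-105897019 (minus), chr2:122147487-122147686 (plus) and chr9:116175364-116175563 (minus).
Socs1: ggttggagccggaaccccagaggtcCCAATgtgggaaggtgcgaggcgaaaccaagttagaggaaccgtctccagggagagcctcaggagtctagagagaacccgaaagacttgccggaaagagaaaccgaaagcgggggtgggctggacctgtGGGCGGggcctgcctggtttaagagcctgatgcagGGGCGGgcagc
Spry2: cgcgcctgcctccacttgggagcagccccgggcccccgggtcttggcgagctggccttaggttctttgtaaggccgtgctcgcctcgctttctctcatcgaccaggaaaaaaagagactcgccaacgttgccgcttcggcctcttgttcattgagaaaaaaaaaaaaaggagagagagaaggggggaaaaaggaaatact
B2m: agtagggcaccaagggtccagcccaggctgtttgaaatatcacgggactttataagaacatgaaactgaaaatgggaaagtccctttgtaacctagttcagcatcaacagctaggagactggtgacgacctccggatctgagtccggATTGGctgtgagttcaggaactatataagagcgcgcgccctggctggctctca
Tgfbr2: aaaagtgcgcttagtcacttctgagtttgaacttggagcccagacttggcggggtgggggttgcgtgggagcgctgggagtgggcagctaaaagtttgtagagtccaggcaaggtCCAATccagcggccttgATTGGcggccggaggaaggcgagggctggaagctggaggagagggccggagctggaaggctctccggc
Spry2 had no match to any of the motifs, and Tgfbr2 had 2 CCAAT boxes.

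The next set holds promoters under 24 h-only regions, which cover all 200 bases in 3 of them and 193 in Zfpm1. They belong to Jun, a subunit of AP-1, Smad3, a transducer of TGF-beta signals, Zfpm1, a cofactor of GATA1, and Tnfaip3, an inhibitor of NF-kappaB signalling. They lie at chr4:95052223-95052422 (minus), chr9:63757995-63758194 (minus), chr8:122281941-122282140 (plus) and chr10:19015411-19015610 (minus).
Jun: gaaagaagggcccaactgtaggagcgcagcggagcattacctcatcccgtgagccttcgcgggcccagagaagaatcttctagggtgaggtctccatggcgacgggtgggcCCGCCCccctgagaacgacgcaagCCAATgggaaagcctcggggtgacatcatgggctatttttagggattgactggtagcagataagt
Smad3: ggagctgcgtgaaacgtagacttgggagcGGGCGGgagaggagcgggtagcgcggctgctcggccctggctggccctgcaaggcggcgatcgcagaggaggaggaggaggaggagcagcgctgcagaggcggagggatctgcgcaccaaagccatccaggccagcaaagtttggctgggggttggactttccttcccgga
Zfpm1: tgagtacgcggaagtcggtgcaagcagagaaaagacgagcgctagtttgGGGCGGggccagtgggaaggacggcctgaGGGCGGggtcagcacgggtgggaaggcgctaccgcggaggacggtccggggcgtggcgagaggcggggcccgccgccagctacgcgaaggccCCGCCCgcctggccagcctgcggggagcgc
Tnfaip3: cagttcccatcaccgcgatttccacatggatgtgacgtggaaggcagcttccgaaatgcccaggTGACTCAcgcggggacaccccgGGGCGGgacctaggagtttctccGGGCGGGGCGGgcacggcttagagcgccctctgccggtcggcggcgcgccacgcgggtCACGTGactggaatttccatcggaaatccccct
Each of these 4 promoters had at least 1 GC box, and that of Tnfaip3 also had an E-box and an AP-1 match. Over all promoter windows, the GC box was present in 69.9% of those under 24 h-only regions. It was present in 63.2% of those under E2-only and 72.2% of those under shared regions, so the printed promoters do not describe their classes.

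The last set holds promoters that shared regions overlap, of Hhex, a homeobox factor of blood progenitors, and Tgif1, a homeodomain repressor. All 200 bases of Hhex and the 37 of Tgif1 nearest to its start lie under the region. They lie at chr19:37434641-37434840 (plus) and chr17:70853533-70853732 (minus).
Hhex: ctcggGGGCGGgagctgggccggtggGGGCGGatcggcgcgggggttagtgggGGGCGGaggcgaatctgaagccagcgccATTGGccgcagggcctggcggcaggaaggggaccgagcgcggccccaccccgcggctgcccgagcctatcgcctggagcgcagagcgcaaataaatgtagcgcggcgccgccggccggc
Tgif1: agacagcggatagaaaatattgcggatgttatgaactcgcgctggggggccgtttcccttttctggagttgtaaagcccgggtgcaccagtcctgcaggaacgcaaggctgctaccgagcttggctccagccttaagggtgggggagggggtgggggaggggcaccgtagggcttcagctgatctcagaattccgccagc
The shared Hhex region was 2731 bases wide in continuous E2 and 2753 at 24 h, and that of Tgif1 was 2556 and 2241 bases wide.

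The E2-only peaks were 22.2% of the continuous E2 list (95% Wilson interval 21.5 to 22.9). The 24 h-only peaks were 10.5% of the 24 h list (9.94 to 11.1). With the longer list shortened to 11465 peaks by width these shares were 18.2% and 18.03%, and equal lengths make the shares about equal by construction. When only the wider peaks of each list were kept (at least its median width), they were 28.5% and 17.99%. In both settings, here and below, peaks were left out before the overlap, so a peak whose partner was left out counted as unshared. The 28.5% is thus not the unshared share of wide peaks. Against the whole 24 h list, 12.6% of continuous E2 peaks of 923 to 1016 bases and 19.3% of those of 1323 to 4261 bases were unshared. From 24 to 40 h without E2, 23.0% of 24 h peaks were absent from the next list and 11.2% of 40 h peaks were absent from the 24 h list. The step from continuous E2 to 24 h was thus of much the same size as the step from 24 to 40 h. The step from 56 to 72 h had 9.76% and 15.3%, the only step of the 5 in which the later list was the longer one.

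Few regions lay close to the overlap threshold. The E2-only peak nearest to a 24 h peak lay 452 bases from it, the median gap was 36514 bases, and 6 gaps were within 1000 bases. For 24 h-only peaks the smallest gap was 652 bases, the median 26087.5, and 4 were within 1000 bases. Among the 10263 pairs of overlapping peaks the smallest overlap was 113 bases and the median 751.

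Peaks called in only 1 list were narrower than shared ones, and position relative to genes moved with this. E2-only peaks had a median width of 661 bases (quartiles 468 to 953) and shared ones 872 bases in the same list (679 to 1091). In the 24 h list, 24 h-only peaks had a median of 691 bases (482 to 957) and shared ones 777 (595 to 977). Within 1000 bases of the start or end of a protein-coding gene, here a gene boundary, E2-only peaks had a median of 955.5 bases and shared ones 956. Away from boundaries the medians were 584 and 734 bases. The width difference of E2-only peaks therefore appeared away from boundaries. At boundaries, 24 h-only and shared peaks of the 24 h list had medians of 801 and 855 bases, and away from them 563.5 and 635. The median of E2-only minus that of shared peaks, -211 bases here, was -101 with lists of equal length and -116 among the wider peaks of each list.

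The share of continuous E2 peaks that were E2-only was lowest at middle widths. In 10 classes of about equal size it was 50.6% among the narrowest peaks (170 to 455 bases), 12.6% in the seventh class (923 to 1016 bases) and 19.3% among the widest (1323 to 4261 bases). At gene boundaries it was 34.5% in the narrowest class, 7.60% in the sixth and 16.8% in the widest. Away from boundaries it was 52.9%, 22.5% and 26.6% in those classes. The 24 h-only share went the same way, from 20.5% over 5.74% to 12.6% of 24 h peaks. Of the 254 E2-only peaks in the widest class, 42 were called in all 4 other lists (16.5%, 12.5 to 21.6), against 19 of 667 in the narrowest (2.85%, 1.83 to 4.41). At gene boundaries these were 38 of 165 in the widest class and 2 of 58 in the narrowest (23.03% and 3.45%). Away from boundaries they were 4 of 89 and 17 of 609 (4.49% and 2.79%), and those intervals overlapped. Wide E2-only regions were thus more often absent at 24 h alone at boundaries, and no clear difference with width was seen away from them.

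**Figure D1:**
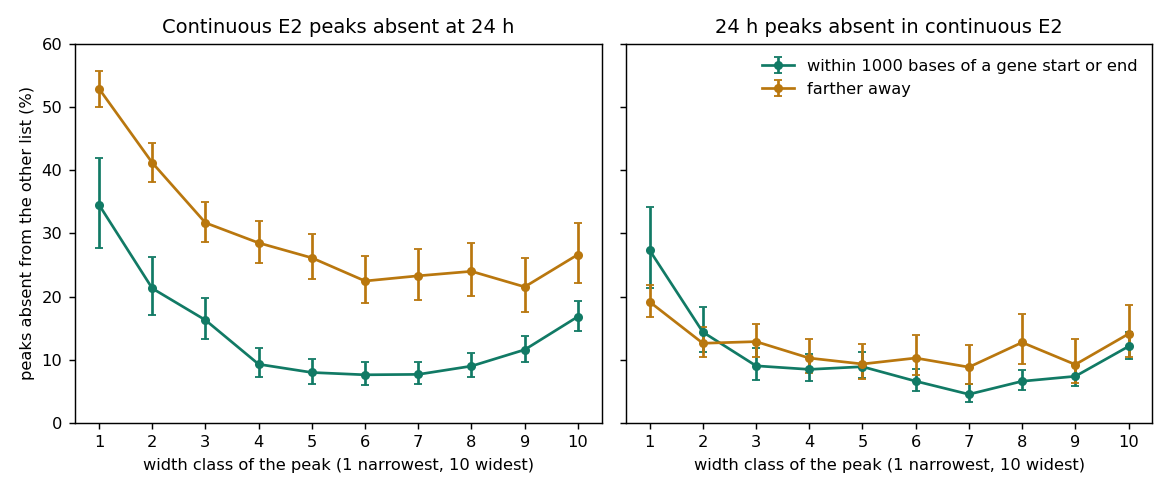
Share of peaks absent from the other list (percent) against width class of the peak (10 classes of about equal size, 1 the narrowest), for continuous E2 peaks (left) and 24 h peaks (right), in green at gene boundaries (within 1000 bases) and in brown farther away, with 95% Wilson intervals as bars. In the left panel the share at boundaries was 34.5% in the narrowest class, 7.60% in the sixth and 16.8% in the widest.

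E2-only regions lay at gene boundaries less often than shared ones. The shares were 27.8% (26.2 to 29.4) of E2-only, 48.8% (45.9 to 51.6) of 24 h-only and 59.5% (58.5 to 60.4) of shared regions. The difference from shared regions was -31.7 percentage points for E2-only (95% Newcombe interval -33.5 to -29.8) and -10.7 for 24 h-only (-13.7 to -7.72). With lists of equal length the differences were -28.0 and -26.7, and among the wider peaks of each list the E2-only difference was -18.4. Inside genes but away from boundaries lay 37.9% of E2-only, 27.5% of 24 h-only and 22.0% of shared regions. Outside genes and away from boundaries lay 34.3%, 23.8% and 18.6%. More than 50000 bases from any protein-coding gene lay 10.8%, 7.24% and 6.07%.

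Start sites themselves gave the same order. A region covered a RefSeq start site in 21.9% of 2824 E2-only, 44.0% of 1184 24 h-only and 53.5% of 9956 shared regions on chromosomes with start sites in the table. Among those that covered one, the midpoint lay at a median of 87 bases downstream of the start in E2-only regions, 24.5 in 24 h-only and 35 in shared regions. The median midpoint lay on the transcribed side in all 3 classes.

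**Figure D2:**
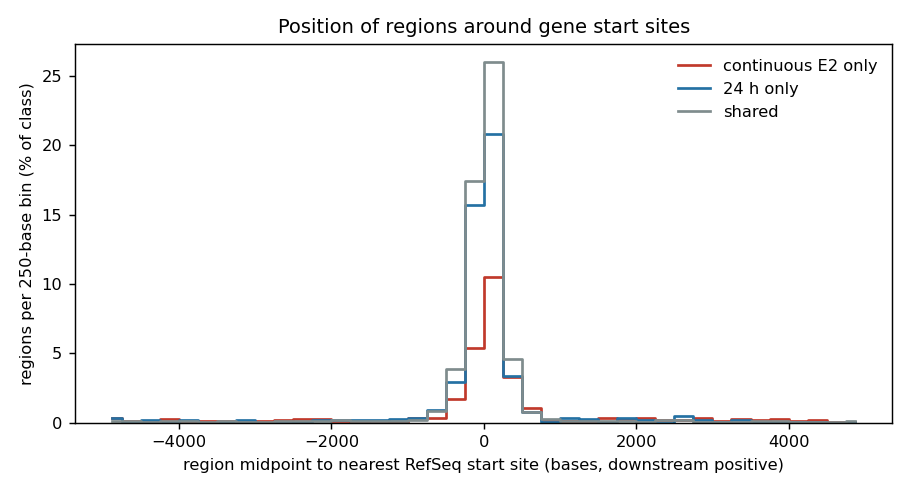
Percent of the regions of each class per bin of 250 bases against the distance from region midpoint to the nearest RefSeq start site (bases, downstream positive). All 3 classes peak at the start site, and the E2-only line is the lowest there, as 21.9% of E2-only regions covered a start against 44.0% and 53.5%.

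The lists of the other 4 groups, which played no part in forming the classes, held a larger share of the 24 h-only than of the E2-only regions. At 40, 56, 72 and 120 h, 22.4%, 18.4%, 21.1% and 16.0% of E2-only regions were called. For 24 h-only regions these shares were 54.4%, 50.7%, 53.9% and 37.3%, and for shared regions 79.7%, 70.2%, 71.4% and 58.9%. Of the 2917 E2-only regions, 951 (32.6%, 30.9 to 34.3) were called in at least 1 of these lists and 1966 in none. Of the 1202 24 h-only regions, 838 (69.7%, 67.1 to 72.2) were called again and 364 were not. In all 4 of these lists were 236 E2-only (8.09%), 319 24 h-only (26.5%) and 5265 shared regions (51.4%). With 50% reciprocal overlap the shares called again were 27.6% for E2-only in any list and 31.3% for 24 h-only at 120 h.

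Position and width both moved with these calls. Of E2-only regions called in another list, 51.9% lay at a gene boundary, against 16.1% of those called in none, a difference of 35.9 points (32.3 to 39.4). For 24 h-only regions the shares were 59.7% and 23.6%, a difference of 36.0 points (30.3 to 41.3). E2-only regions in no other list had a median width of 586.5 bases, those in any 890 and those in all 4 1000. For 24 h-only regions the medians were 575.5, 747 and 770 bases. Away from boundaries 78.3% of E2-only, 45.1% of 24 h-only and 27.9% of shared regions were in none of the 4 lists.

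**Figure D3:**
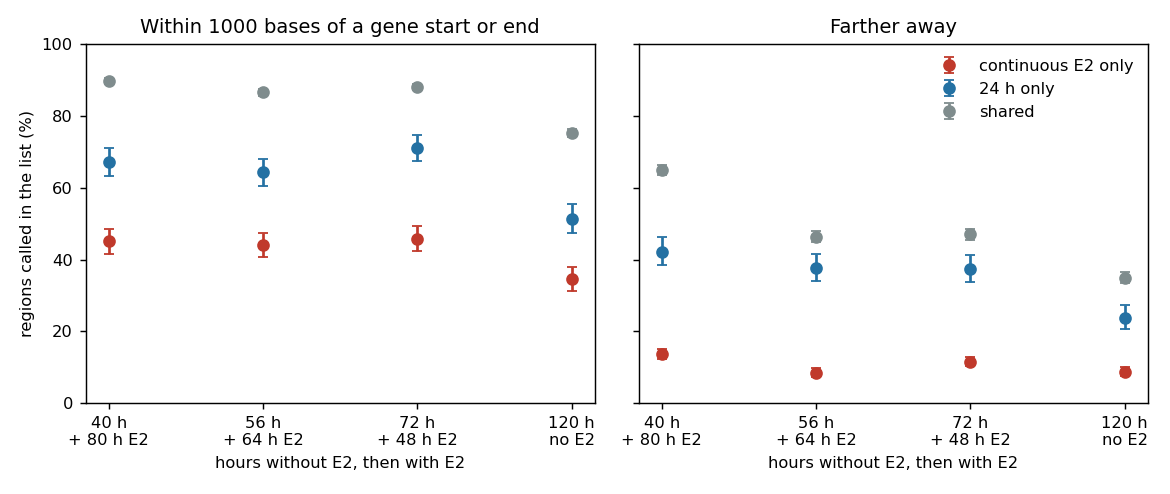
Percent of E2-only (red), 24 h-only (blue) and shared (grey) regions called in the lists of 40, 56, 72 and 120 h without E2, at gene boundaries (within 1000 bases) (left) and farther away (right), with 95% Wilson intervals as bars. Farther away, E2-only regions were called in 8.54% to 13.6% of cases and 24 h-only regions in 23.9% to 42.2%.

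Single regions at the wide end differed in these other lists. The widest E2-only region spanned 4261 bases over the start of Pcdh7, a protocadherin gene, at chr5:57714200-57718460. It was called at 40, 56 and 72 h with widths of 2648, 1192 and 1098 bases and not at 120 h. The region at the start of Gtf2a1, a general transcription factor gene, at chr12:91588290-91590926, was 2637 bases wide in continuous E2 and was called at all 4 of those durations, with 844 to 1149 bases. That at Kcnk12, a potassium channel gene, at chr17:87796015-87798631, was 2617 bases wide and in no other list. The widest 24 h-only region, over Jun at chr4:95050153-95053606, spanned 3454 bases at 24 h, 1633 at 40 h, 883 at 72 h and 855 at 120 h. Epha7, an ephrin receptor gene, had one of 2946 bases at chr4:28812720-28815665, called at 1218, 779, 670 and 522 bases in the other 4 lists. Klf13, a Krüppel-like factor gene, had one of 2535 bases at chr7:63937318-63939852 that was also called at 56 h (2258 bases) and 72 h (1442). The widest shared regions were at chr14:19415771-19419419, 3629 and 3649 bases wide in the 2 lists, and chr17:39843159-39846686, with 3515 and 3528 bases. The first was called in all 4 other lists at 3642 to 3679 bases, and the second at 120 h alone, with 3256. Neither lay within 50000 bases of a protein-coding gene.

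A protein-coding gene was assigned to 13344 regions, the one overlapped or with its start or end nearest within 50000 bases. Of these regions 2603 were E2-only (19.5%) and 1115 were 24 h-only (8.36%). In all, 9953 genes had a region, 2289 an E2-only one, 1075 a 24 h-only one and 179 both. For 1234 genes every region was E2-only and for 620 every region was 24 h-only. A gene with 1 region has all of its regions in 1 class, and such genes were not counted apart. These counts therefore do not describe genes that changed as a whole. At least 3 E2-only regions were found at 38 genes, led by Prkag2, a regulatory subunit of AMP-activated kinase, with 5 E2-only, 1 24 h-only and 3 shared regions. Uck2, a uridine-cytidine kinase, Septin9, a cytoskeletal GTPase, Rbm38, an RNA-binding protein, and Pkd1l2 had 4 each. Aff1, a subunit of a transcription elongation complex, Ldlrad4, Gm5544 and Tgfbr2 had 3 each. The gene Zmiz1, a transcriptional coactivator, had 3 E2-only and 3 24 h-only regions, and the E2-only one over its start, at chr14:25457570-25459736, was 2167 bases wide. S1pr1, a sphingosine 1-phosphate receptor that guides cell exit from tissues, also had 3 24 h-only regions and no E2-only one. Spen, a transcriptional repressor, Gse1, Epha7, H2bc11, Zswim6, Gna13, a G protein alpha subunit, Esyt1 and Wdfy1 had 2 each. Long genes can hold more regions, and gene length was not part of the assignment.

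Genes that Hoxa9 is known to act with or on held 10 E2-only, 2 24 h-only and 33 shared regions at 19 of 24 listed genes. The E2-only share was 22.2% (12.5 to 36.3), beside 19.5% over all assigned regions. The 3 E2-only regions of Meis1 lay inside the gene, at chr11:18885588-18886111, chr11:18940878-18941419 and chr11:18948787-18949549, with widths of 524, 542 and 763 bases. None was called in any other list. The Meis1 region over its start, at chr11:19018411-19020716, was shared, with 2306 bases in continuous E2, 2229 at 24 h and 954 at 40 h. It was not in the lists of 56, 72 and 120 h. Runx1, a master factor of blood stem cells, had 2 E2-only and 3 shared regions. Its shared region at chr16:92620732-92622155 was 1424 bases wide in continuous E2, 930 at 24 h, 836 at 40 h and 608 at 56 h.

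The E2-only region of Myb, a factor needed by progenitors, lay at chr10:21186698-21187535, 25714 bases from the gene, was 838 bases wide and was in no other list. Over the start of Myb, the shared region measured 964 and 1041 bases. Sox4, a factor that promotes progenitor growth, had an E2-only region of 933 bases at chr13:28942478-28943410, and Mecom, a stem cell factor, one of 512 bases. Cdk6, a kinase that drives the cell cycle, had 5 shared regions and no other. The 24 h-only regions were those of Gata2, a stem cell factor, with 756 bases at 24 h, 714 at 40 h, 326 at 56 h and 288 at 72 h, and of Bcl2, a survival gene, with 257 bases at 24 h and 223 to 314 in the other 4 lists. No region lay within 50000 bases of Hoxa9 itself, and the nearest was shared and lay 210019 bases away.

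Progenitor receptors and surface markers had 5 E2-only, 5 24 h-only and 26 shared regions, at 14 of 22 genes. The E2-only share was 13.9% and the 24 h-only share 13.9%, beside 19.5% and 8.36%. Cd34 had its E2-only region over the start, at chr1:194938580-194939547, 968 bases wide and in no other list, while its 4 shared regions measured 592 to 1186 bases in continuous E2 and 383 to 981 at 24 h. Kit, the receptor for stem cell factor, had 1 shared region over its start, 1632 bases wide in continuous E2. It had 1193, 1191, 1187 and 1010 bases in the lists of 24, 40, 56 and 72 h. Flt3, a cytokine receptor of early progenitors, had 4 shared regions. That over its start measured 1420 bases in continuous E2, 1172 at 24 h and 817 at 40 h, with no call at 56, 72 or 120 h. Tgfbr2 had E2-only regions of 997, 545 and 1301 bases, the last over its start at chr9:116174687-116175987 and in no other list. Cd44, an adhesion receptor, had 2 24 h-only regions, including one of 504 bases over its start, beside 1 E2-only one. Il6ra, which binds interleukin-6, had a 24 h-only region of 816 bases over its start that was 549 bases wide at 120 h.

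Transcription factors of granulocytes and monocytes had 9 E2-only, 3 24 h-only and 15 shared regions. The E2-only share was 33.3% (18.6 to 52.2), and the interval holds the 19.5% of all assigned regions. Cebpe, needed for late granule formation, had a single E2-only region of 658 bases at chr14:54705822-54706479, 3884 bases from the gene, called again at 40 h (207 bases) and 56 h (439). Cebpb, a factor of emergency granulopoiesis, had one of 797 bases, 8060 bases from the gene, in no other list. Fli1, an ETS factor, had 2, of 2096 bases at chr9:32539358-32541453 and 890 bases, neither called elsewhere. Elf1, another ETS factor, had one of 1101 bases over a start site. Shared regions lay at Cebpa, which starts granulocyte fate (1616 and 1325 bases), Spi1, which encodes the myeloid factor PU.1 (901 and 704 bases in the region near its boundary), Gfi1, a repressor needed by neutrophils (777 and 812), and Irf8, a monocyte factor (631 and 672). Gfi1b, a transcriptional repressor needed by red cell and platelet lineages, had a 24 h-only region of 742 bases over its start, in no other list.

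Genes of granules, the oxidase and macrophages had 24 h-only shares of 0% to 10%, with intervals that hold the 8.36% of all assigned regions. Their E2-only shares were 25.9% to 37.5%, with intervals that hold 19.5%. Primary granule genes had 3 E2-only, 1 24 h-only and 6 shared regions. Ctsg, which encodes cathepsin G, had an E2-only region of 895 bases, 2606 bases from the gene, that was called again at 40 h (717) and 56 h (857). Plac8 had an E2-only region of 1419 bases and a 24 h-only one of 580 bases over its start. Lysozyme and late granule genes had 3 E2-only, 0 24 h-only and 5 shared regions, with E2-only ones at S100a9, a subunit of calprotectin, Slpi, a protease inhibitor, and Pglyrp1, a peptidoglycan-binding granule protein. That of Pglyrp1 covered its start with 903 bases and was called again at 72 h (831) and 120 h (863). No region was assigned to Lyz2, whose nearest region was shared and lay 52578 bases away.

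Phagocyte receptor and oxidase genes had 7 E2-only, 2 24 h-only and 18 shared regions. Among them, Cyba, an NADPH oxidase subunit, had one of 1000 bases over its start at chr8:122432336-122433335, in no other list. Rac2, a GTPase that activates the oxidase, had one of 1640 bases called again at 72 h (257) and 120 h (537). Tlr2, a receptor for bacterial lipoproteins, had one of 663 bases that was called again at 120 h, with 332 bases. Monocyte and macrophage genes had 5 E2-only, 1 24 h-only and 8 shared regions, with 2 E2-only ones at the haemoglobin scavenger receptor gene Cd163 and 1 at Marco, another scavenger receptor gene. With lists of equal length this list had 2 E2-only and 3 24 h-only regions, counting shared regions whose narrow continuous E2 peak was dropped as 24 h-only.

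A list of cytokine, growth factor and TGF-beta signalling genes, many of them feedback inhibitors, had 10 E2-only, 3 24 h-only and 29 shared regions. The shares were 23.8% E2-only and 7.14% 24 h-only, beside 19.5% and 8.36% of all assigned regions. The E2-only region over the start of Socs1, at chr16:10784762-10786582, was 1821 bases wide in continuous E2 and, though absent at 24 h, 1752 at 40 h, 1139 at 56 h and 771 at 72 h. That of Spry2, at chr14:105896193-105897982, measured 1790 bases in continuous E2, 916 at 56 h and 996 at 72 h. Socs2, an inhibitor of STAT5 signalling, had one of 1668 bases, called again at 56 h (768 bases). Dusp6, a phosphatase that switches off ERK, had an E2-only region of 1386 bases, 20485 bases from the gene, and a shared one over its start of 2454 and 2297 bases. The 24 h-only regions over the starts of Cish, Tnfaip3 and Smad3 measured 516, 913 and 1594 bases. All 3 were called in each of the other 4 lists, at 480 to 601, 594 to 793 and 621 to 677 bases. These promoters were thus called in every list except continuous E2.

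Immediate early and AP-1 genes, which respond within minutes to growth factors or stress, had 8 E2-only, 5 24 h-only and 30 shared regions. The shares were 18.6% and 11.6%, beside 19.5% and 8.36%. With lists of equal length the balance turned, to 5 E2-only and 9 24 h-only regions. The added 24 h-only ones are shared regions whose narrow continuous E2 peak was dropped. Atf3, a stress factor, had 2 E2-only regions, and that over its start was 1150 bases wide and was called again at 56 h (645) and 120 h (431). Ier5 had 2, and the one over its start, of 1258 bases, was called in all 4 other lists. Fosb, an AP-1 subunit, had 1 E2-only, 1 24 h-only and 3 shared regions, while Fos had 5 shared regions and no other. Jun had the 24 h-only region described above and a shared one of 913 and 746 bases.

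Estrogen-responsive genes, cell cycle genes and housekeeping genes were described for comparison. Estrogen-responsive genes had 3 E2-only, 0 24 h-only and 9 shared regions, the E2-only ones at Myb, Rara and Sgk3, of which Rara (a retinoic acid receptor) had 400 and Sgk3 (a kinase) 424 bases. With lists of equal length 1 E2-only region was left, and 2 shared regions whose narrow continuous E2 peak was dropped counted as 24 h-only. Cell cycle genes had 4, 1 and 24. With lists of equal length they had 2 E2-only and 3 24 h-only regions, again counting shared regions that lost a continuous E2 peak as 24 h-only. Ccnd3, a D-type cyclin that drives entry into the cycle, had 2 E2-only regions inside the gene, of 678 and 794 bases and in no other list. Cdkn1b, which encodes the cell cycle inhibitor p27, had a 24 h-only region of 1108 bases, 2540 bases from the gene, that was called at 872 to 1012 bases in the other 4 lists. Housekeeping genes had 5, 1 and 18, an E2-only share of 20.8%. B2m had an E2-only region of 1500 bases over its start, called again at 56, 72 and 120 h with 771, 738 and 713 bases. Ywhaz, an adaptor protein gene, had 3 E2-only regions and a 24 h-only one of 2262 bases that was called at 1646 to 2016 bases in the other 4 lists.

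Genes of other lineages were listed as markers of other cell types. Red cell and platelet genes, 7 of 17 with a region, had 2 E2-only, 3 24 h-only and 5 shared regions. The 24 h-only ones were at Zfpm1 (1042 bases over its promoter, 966 to 1061 in the other 4 lists), Itga2b, a platelet integrin, and Vwf, a clotting factor (1238 bases). The E2-only ones were at the same genes, Zfpm1 (419 bases) and Vwf (1280 bases), and neither was in another list. Lymphoid genes, 9 of 21 with a region, had 3, 2 and 9, with E2-only regions at Pax5 (1818 bases), Gata3 (973) and Ebf1 (769), and 24 h-only ones at Tcf7 (718) and Satb1 (1710). Mast cell, basophil and eosinophil genes, 4 of 14 with a region, had 1, 0 and 5, and with lists of equal length 0 E2-only and 2 24 h-only regions.

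Over the 15 lists the E2-only share ran from 13.8% to 37.5%, with a median of 22.2%, and the 24 h-only share from 0% to 30%, with a median of 7.14%. The 95% interval held the share of all assigned regions in 29 of 30 cases. The exception was the 24 h-only share of red cell and platelet genes, 3 of 10 regions (10.8 to 60.3). No myeloid list had an interval away from the share of all assigned regions.

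**Figure D4:**
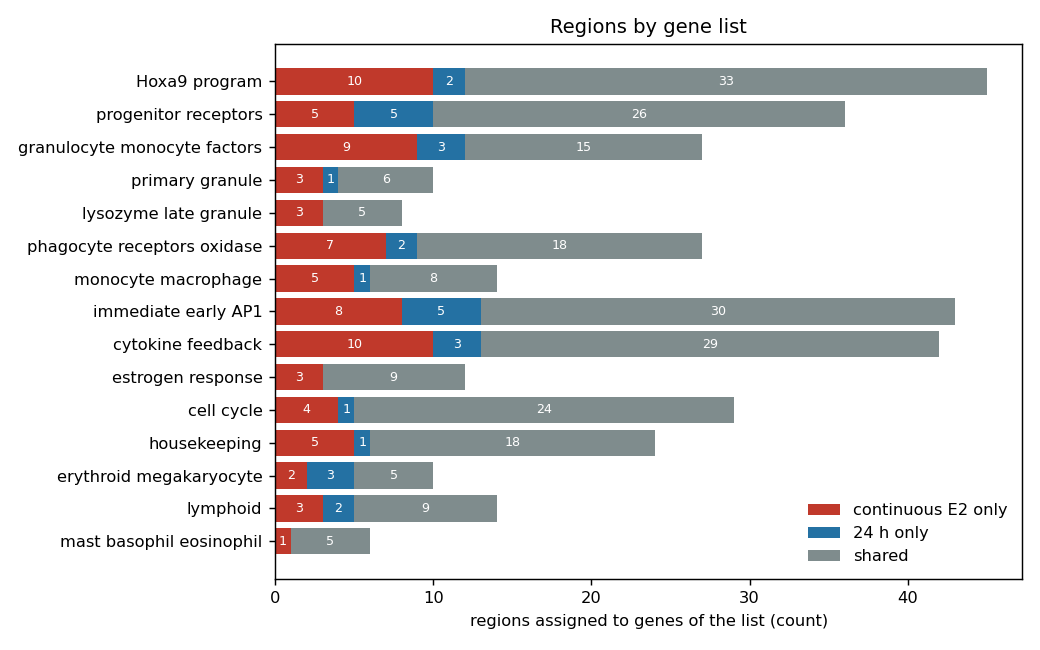
Number of E2-only (red), 24 h-only (blue) and shared (grey) regions assigned to the genes of each of 15 lists, as stacked bars with the counts written in. The Hoxa9 list has 10 E2-only, 2 24 h-only and 33 shared regions.

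Shared regions were narrower at 24 h than in continuous E2. Of the 10233 that were 1 peak in each list, 8005 (78.2%, 77.4 to 79.0) were narrower, 2176 wider and 52 equal, with a median change of -75 bases (quartiles -169 to -9). At gene boundaries the median change was -76 bases and away from them -74. In 137 regions the width at 24 h was below 50% of that in continuous E2, and 94 of these lay away from boundaries. The other 15 shared regions were 1 continuous E2 peak that met 2 peaks of the 24 h list. The whole 24 h list also had narrower peaks than the continuous E2 list, with medians of 768 and 839 bases, and the cause was not tested.

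The shared region that lost most width lay inside Nr4a2, an orphan nuclear receptor gene, at chr2:57114334-57117764. It was 3426 bases wide in continuous E2, 1105 at 24 h, 697 at 40 h and not called at 56, 72 or 120 h. Mgat5, a glycosyltransferase gene, had a region over its start of 2756 and 532 bases. Smim3 had one of 2776 and 745, Stx7, a syntaxin gene, one of 1961 and 270, and Sdc1, which encodes syndecan-1, one of 2581 and 990 over its start. The largest gains were smaller. Nfia, a nuclear factor gene, had a region of 875 and 1519 bases, Sdhb, a subunit of succinate dehydrogenase, 522 and 929, Gng7, a G protein subunit, 557 and 934, Zscan21 694 and 1054, and the cytokine gene Il17d 898 and 1241.

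Shared regions were sorted into 5 classes by their log2 ratio of widths, from the most narrowed to the most widened at 24 h, and looked up in the 120 h list. The shares called at 120 h were 47.2% in the most narrowed class, 58.7%, 63.8% and 66.4% in the next 3 and 58.3% in the most widened. Away from gene boundaries they were 27.1% in the most narrowed class, 31.5%, 38.4% and 45.0% in the next 3 and 36.5% in the most widened. The share thus rose up to the fourth class and fell in the most widened. The most narrowed class was then set against the fourth, the class with the highest share, so a comparison with another class would differ. Within 5 classes of width in continuous E2, the most narrowed class minus the fourth was -25.3, -15.0, -23.4, -13.1 and -6.27 points from the narrowest to the widest. The last interval ran from -12.4 to -0.178, so the difference was smallest among wide regions. The 24 h width enters the classes and the 120 h list does not.

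**Figure D5:**
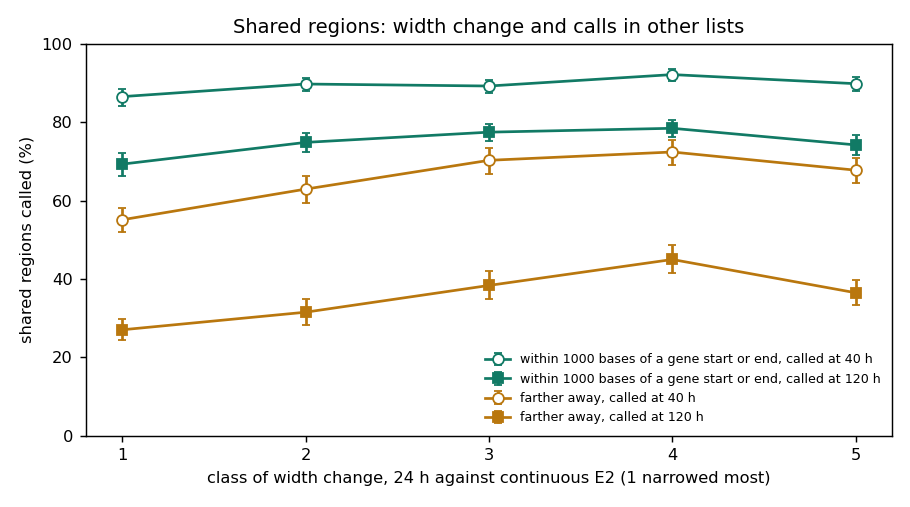
Percent of shared regions called at 40 h (open circles) and 120 h (filled squares) against class of width change from continuous E2 to 24 h (1 the most narrowed, 5 the most widened), in green at gene boundaries (within 1000 bases) and in brown farther away, with 95% Wilson intervals as bars. Farther away, 27.1% of the most narrowed class, 45.0% of the fourth and 36.5% of the most widened were called at 120 h.

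Promoter windows, from 250 bases before to 50 after a start site in RefSeq (GRCm38.p6), were read for 17492 protein-coding genes. Of the 6931 windows that held a region, 636 held an E2-only one (9.18%), 529 a 24 h-only one (7.63%) and 5766 a shared one. Windows under E2-only regions had a median of 20 CpG dinucleotides, those under 24 h-only and shared regions 23, and those without a region 5. The GC box GGGCGG was present in 63.2% of E2-only, 69.9% of 24 h-only and 72.2% of shared windows, and in 46.3% of all windows. The E2-only share minus the shared one was -9.03 points, with an interval of -13.0 to -5.19.

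The ETS motif CCGGAAG was present in 18.2%, 21.0% and 24.4%, and in 11.9% of all windows. The CCAAT box was present in 35.1%, 36.5% and 42.7%, and in 39.2% of all windows. For CACGTG, the E-box read by MYC and USF, the shares were 14.2%, 12.1% and 10.9%, with 7.91% of all windows. The GATA motif AGATAA was present in 6.92%, 6.62% and 4.75%, with 9.94% of all. Over 12 motifs, 5 E2-only and 1 24 h-only differences from shared windows had an interval that excluded 0, with no adjustment for the 24 differences computed. Those of AP-1, RUNX (TGTGGT), C/EBP (TTGCNNCAA) and HOX and PBX (TGATNNAT) all included 0. Motifs were searched on both strands, and matches describe letters only.

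Some microRNA clusters lay beside regions of these classes. Those named here were picked after their values were seen. Of 1005 hairpins in RefSeq, 199 lay within 5000 bases of a region, 38 (19.1%) near an E2-only, 32 (16.1%) near a 24 h-only and 136 near a shared one, beside 20.3% and 8.37% of all regions that were E2-only and 24 h-only. Hairpins of a cluster share their regions, and 1 hairpin can lie near several, so these shares are a description. The miR-17 to miR-92 cluster, which favours progenitor growth, had an E2-only region of 2375 bases at chr14:115040310-115042684, 987 bases upstream. It was called again at 56, 72 and 120 h with 952, 947 and 688 bases. The cluster of miR-23a, miR-27a and miR-24 had one of 255 bases at chr8:84207872-84208126, called again at 56 h (204) and 72 h (192). Mature strands are shown with the seed (bases 2 to 8) in capitals, so that members with the same seed can be seen.
miR-17-5p: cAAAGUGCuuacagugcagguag
miR-20a-5p: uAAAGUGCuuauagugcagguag
miR-18a-5p: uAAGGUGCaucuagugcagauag
miR-19a-3p: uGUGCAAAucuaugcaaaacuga
miR-19b-3p: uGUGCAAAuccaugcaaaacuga
miR-92a-3p: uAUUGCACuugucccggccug
miR-23a-3p: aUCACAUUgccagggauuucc
miR-27a-3p: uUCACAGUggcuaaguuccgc
The seeds of miR-17-5p and miR-20a-5p are identical, as are those of miR-19a-3p and miR-19b-3p.

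A 24 h-only region of 996 bases at chr11:75172787-75173782 covered the hairpins of miR-212 and miR-132 and was called again at 56 h (690) and 72 h (667). The miR-322 and miR-503 cluster had one of 849 bases at chrX:53056744-53057592, called again at 40 h (774) and 56 h (602). Mir223, a microRNA gene of granulocytes, had a shared region 2381 bases upstream at chrX:96239493-96240436, 944 bases wide in continuous E2, 593 at 24 h, 482, 447 and 469 at 40, 56 and 72 h, and 656 at 120 h.
miR-132-3p: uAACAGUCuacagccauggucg
miR-212-3p: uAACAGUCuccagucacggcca
miR-322-5p: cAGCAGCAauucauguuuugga
miR-503-5p: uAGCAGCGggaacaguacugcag
miR-223-3p: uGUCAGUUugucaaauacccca
The seed of miR-132-3p is also that of miR-212-3p.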

How the data were processed

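ATAC-seq of 12 libraries in 6 groups measured open chromatin. Groups were taken from the labels. The authors deposited 1 peak list per group, holding chromosome, start and end. The submitters' processing notes name BWA, MACS2 2.0 and STAR 2.5, without roles, and the build mm9. Coordinates were checked against GRCm38 promoter windows, which 47.9% of continuous E2 and 53.6% of 24 h peaks overlapped, against 2.39% and 2.26% after a shift of 100000 bases, so GRCm38 was used. Exact duplicates (2530 and 2529 rows in the lists of continuous E2 and 24 h) and intervals over 10000 bases were dropped, and rows that overlapped were merged. Depth is unknown.

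Regions were compared by overlap of 1 base. Gene names came from RefSeq. No exon or intron annotation and no genome sequence was used here. Shares have 95% Wilson intervals and differences Newcombe intervals. The genes named are the 10 with the most E2-only and the 10 with the most 24 h-only regions, the 3 widest regions per class, the 5 shared regions that narrowed and widened most, up to 5, 4 and 2 genes per list by E2-only, 24 h-only and shared regions, and fixed genes such as Hoxa9 and Lyz2. Not every gene taken by it is described, and 1 is not reported here. Hhex, Tgif1 and the other printed promoters are those under the widest regions, among listed genes that had a promoter window. Such a window was at hand for 253 of 315 listed genes, so wider regions of other listed genes, as at Socs2, are not among them. Members and lists were chosen with earlier results of these data known. Alternatives covered overlap, list length, width, chromosomes, merging, boundary window and assignment distance. Functions were tested on simulated data. Python 3.11.15, numpy 2.4.6, pandas 2.3.3 and matplotlib 3.10.9 were used.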

Additional observations from a re-analysis of the deposited data

Results flagged for a closer look

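The 24 h list held 16 intervals over 10000 bases, which no comparison used, and the continuous E2 list held 14. They stand out because they are far longer than any other peak.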

How the results depend on the processing

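No paired analysis was possible because each group had 1 list and no values per library. Without chromosomes 18 and 19, with overlapping rows unmerged, and with boundary windows of 500 or 2500 bases, the results kept their direction and size. Counting peaks within 200 bases as shared changed no class, since no gap was that small. With 50% reciprocal overlap, 23.4% of the peaks in continuous E2 and 12.1% of those at 24 h were unshared, 27.6% of E2-only regions were called in another list and 31.3% of 24 h-only regions at 120 h. With the longer list shortened by width, the unshared shares were 18.2% and 18.03%, the boundary differences -28.0 and -26.7 points, the share of E2-only regions called in another list 39.3%, and the width difference -101 bases. With peaks at or above the median width alone, the values were 28.5% and 17.99% unshared, -18.4 points for E2-only at boundaries, 43.8% called in another list, 33.7% of 24 h-only at 120 h, and a width difference of -116 bases. The width comparison under these settings was added after seeing the data. The last 2 settings left peaks out before the overlap, so shared regions that lost 1 peak became unshared. The boundary and width differences kept their sign under the settings tried. The shares could not turn negative, so only their size was compared. Among 15 gene lists, the balance of E2-only against 24 h-only counts turned in 5 with lists of equal length (immediate early, monocyte, cell cycle, estrogen-responsive and mast cell genes) and became equal in 2 (late granule and lymphoid genes). The 24 h-only regions added there are shared regions whose narrow continuous E2 peak was dropped, so the turn follows in part from the shortening. With the wider peaks alone, cell cycle genes turned (0 and 2) and monocyte genes became equal. Of 45 counts by gene list, 30 moved by over 1.5 times with the wider peaks alone, 19 with lists of equal length, 4 and 2 with assignment within 20000 or 100000 bases, 2 with reciprocal overlap and 1 without chromosomes 18 and 19. Depth limits every call, since a peak absent from a list may be open below the caller's threshold, and this could not be measured from positions.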

Other observations

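Chromosomes differed in their shares of E2-only and 24 h-only regions. The 24 h-only share was highest on chromosome 11, at 13.1% of its regions (95% Wilson interval 11.1 to 15.4), beside 8.37% over all regions. Leaving out chromosome Y, which had 1 region, an E2-only one, the E2-only share was highest on chromosome 13, at 24.6%, and lowest on chromosome 19, at 15.5%, beside 20.3%. Of 20 chromosomes, 4 had an interval that excluded the overall E2-only share and 4 the overall 24 h-only share, with no adjustment for their number.

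Within 20000 bases of an E2-only region lay another E2-only region in 10.7% of cases and a shared one in 29.4%. For 24 h-only regions these shares were 6.07% and 30.9%, and 28.9% of shared regions had a shared neighbour. The classes differ in number (2917, 1202 and 10248), which moves with the same-class shares.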
